A study of Mus musculus with 48 samples.

Results

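Spleen natural killer (NK) cells of the fraction named mNK1 were compared by RNA-seq between mice labelled cKO, which carry the genotype Bach2flox/flox Ncr1Cre, and mice labelled cWT, which carry Ncr1Cre alone. Membership was set by sample title: the 3 libraries titled as cKO mNK1 and the 3 titled as cWT mNK1 were taken, 6 of the 48 libraries of the series. In both groups Cre is driven by Ncr1, the gene of the NK receptor NKp46, so recombination is directed to cells that have switched Ncr1 on, and the controls carry the Cre too. Age, sex, the surface markers of the mNK1 gate and the exon flanked by the loxP sites are not given in the labels. The other 42 libraries were used beside them where stated: iNK, mNK2 and NK fractions of the same 2 genotypes (3 libraries each), Bach2-KO and WT NK cells from spleens of mixed bone marrow chimeras (4 each), and 4 subsets of unmodified WT mice (iNK, mNK1, and mNK2 divided by KLRG1, 4 each). The labels number the replicates without saying that each number is an animal, so p-values measure the spread between these samples, which may be technical.

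BACH2 is a transcriptional repressor of the basic leucine zipper family that pairs with small MAF proteins and occupies DNA elements that AP-1 factors (JUN and FOS family dimers) can also occupy. In T cells it is known for restraining effector genes and for keeping cells in a less differentiated, longer-lived state. As mouse NK cells mature they lose CD27 and TCF1 and gain cytotoxic granule proteins and the receptor KLRG1. The comparison asks which genes of mNK1 cells differ when Bach2 is conditionally targeted in NKp46-expressing cells.

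The 6 libraries held 13884277 to 17214390 gene counts and 13764 to 13969 detected genes each, and the TMM scaling factors ran from 0.939 to 1.03. Levels are given as CPM, the count divided by the scaled library total and set to a common total, and 3 counts in a library stand for 0.185 to 0.217 CPM. None of 15 NK identity genes was called under edgeR or DESeq2 and 1 was higher under limma voom, with 2 at an unadjusted p below 0.05, both higher. The summed level of the 15 was 23550 to 27535 CPM in the libraries labelled cWT and 22622 to 29466 CPM in those labelled cKO. The Cre driver itself set the libraries apart, an observation made after its values were seen: Ncr1 stood at 159.9, 182 and 788 CPM in the libraries labelled cWT and at 1272, 1289 and 1382 CPM in those labelled cKO. All 3 libraries labelled cKO lay above all 3 labelled cWT, but the cWT group was uneven, and Ncr1 did not pass the test (log2 fold change 1.80 ± 0.75 SE, edgeR adjusted p = 0.447). In each of the 4 fractions cWT replicate 3 had the most Ncr1 of the 3 cWT libraries, and the mNK1 cells of unmodified WT mice, scaled in a separate experiment, held 1748 to 1972 CPM. Whether this difference in Ncr1 bears on any gene below was not tested.

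**Figure D1:**
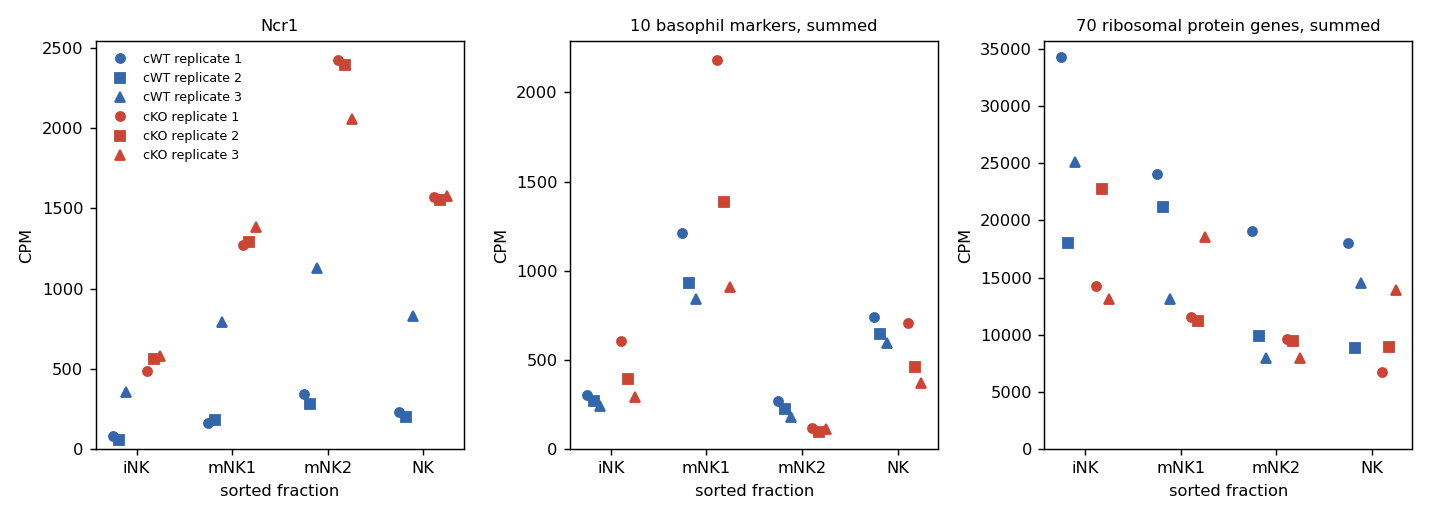
Level in CPM (linear axis) of Ncr1, of 10 basophil markers summed and of 70 ribosomal protein genes summed, for each library of the 4 sorted fractions. Each point is 1 library, its colour gives the labelled genotype and its shape the replicate number; in mNK1 the basophil sum is highest in cKO replicate 1 (2182 CPM), and the ribosomal protein sum of cWT replicates 1 and 2 (24026 and 21150 CPM) is above the other 4 libraries.

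A second uneven feature was the summed level of 70 ribosomal protein genes, which make short transcripts. It was 24026, 21150 and 13134 CPM in cWT replicates 1, 2 and 3 and 11571, 11230 and 18584 CPM in cKO replicates 1, 2 and 3. The groups overlapped. The first principal component of the 6 libraries (36.5% of the variance) had cWT replicates 1 and 2 at one end, cKO replicates 1 and 2 at the other, and both replicates 3 between them. With this sum as a covariate, an alternative chosen after seeing the data, 64 of the 67 named called genes described below were still called. Irf8 (edgeR adjusted p = 0.0879), Gm2a (0.127) and Adam8 (0.0806) were not.

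The targeted gene went against its label at the level of whole-gene counts. Bach2 was at 15.3, 10.2 and 14.98 CPM in the libraries labelled cWT and at 19.4, 26.0 and 30.1 CPM in the libraries labelled cKO. The groups did not overlap, and the higher one was the cKO group. The difference was a log2 fold change of 0.90 ± 0.22 and did not pass the edgeR test (adjusted p = 0.0776). It passed under DESeq2 (log2 fold change 0.90, adjusted p = 0.0161) and under limma voom (0.97, adjusted p = 0.0298). The direction was not particular to mNK1. Bach2 had log2 fold changes of 0.53 ± 0.22 in iNK, 0.70 ± 0.23 in mNK2 and 0.58 ± 0.22 in the NK fraction. None of these passed (edgeR adjusted p = 0.552, 0.442 and 0.375). In the chimera NK cells, by contrast, Bach2 fell by 2.89 ± 0.27 on the log2 scale in the Bach2-KO libraries (edgeR adjusted p = 2.74e-07). A count summed over the whole gene does not show the loss of a single exon, so these counts neither check nor refute the deletion in mNK1. The groups are therefore called by their labels throughout, and every direction below is that of the libraries labelled cKO relative to those labelled cWT.

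Of 12258 genes tested, 70 were called at an edgeR quasi-likelihood adjusted p under 0.05, which is 0.571% of the genes. An unadjusted p under 0.05 was reached by 1192 of the 12258 genes, in either direction. That total, which was not divided by direction, is the background for every count by list at that threshold, above and below. Of the 70 called genes, 47 rose (0.383% of the genes tested) and 23 fell (0.188%) in the libraries labelled cKO. The called changes were mostly modest: the median log2 fold change was 0.67 among the genes that rose and -0.56 among those that fell, and 10 of the former and 8 of the latter reached 2-fold. In 68 of the 70 the 3 libraries of one group all lay outside the range of the other, against 14.1% of all tested genes (8.35% with the cKO group higher and 5.78% with it lower), and Gm2a and Adam8 were the pair that overlapped. Such separation follows from calling the genes on these same libraries and is no further support for them. The number of calls depended on single libraries: it was 29, 32 and 35 without cWT replicates 1, 2 and 3, 28 and 26 without cKO replicates 1 and 2, and 92 without cKO replicate 3. Every called gene kept its direction under those removals. Of 67 named called genes, 10 were called under each of the 17 alternatives tried: Entpd1, Gzmb, Tnfsf8, Ttc39c, Rgs1, Socs2, Klrb1b, Crtam, Phlda3 and Ptger4. The remaining 57 lost the call in at least 1. With each of the 6 libraries left out in turn, 23 of the 67 kept the call every time, which were those 10 and Serpine2, Kcnj8, Meis3, Cym, Tnfaip3, Zfp36, Dusp1, Ifi204, Sytl2, Bcl2, Lilrb4a, Tnfsf4 and Aplp2. Any other called gene named below lost its call in at least 1 of the 6 removals.

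**Figure D2:**
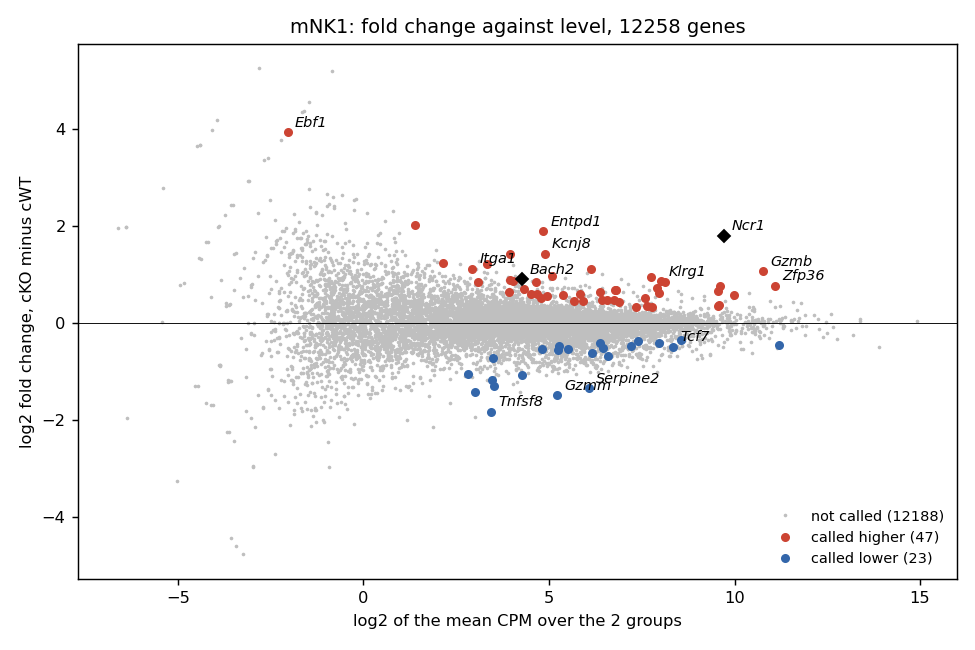
Log2 fold change (cKO minus cWT) against the log2 of the mean CPM of the 2 groups for 12258 genes in mNK1. Red points are the 47 genes called higher and blue points the 23 called lower in the libraries labelled cKO, grey points were not called, and diamonds mark Bach2 and Ncr1, which were not called.

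Apart from Ebf1, which rests on few counts, the largest rise among the named called genes was in Entpd1, which encodes CD39, a cell surface enzyme that breaks down extracellular ATP. Its level was 14.3, 13.2 and 8.99 CPM in the libraries labelled cWT and 45.8, 53.1 and 36.7 CPM in those labelled cKO. The groups were well apart, a 3.72-fold difference (log2 fold change 1.89 ± 0.18, edgeR adjusted p = 2.05e-06). Gzmb, which encodes granzyme B, a serine protease that granules deliver into target cells, stood at 1077, 1183 and 1148 CPM against 2442, 2465 and 2215 CPM. The rise was 2.09-fold and similar in all 3 libraries (log2 fold change 1.06 ± 0.10, edgeR adjusted p = 1.97e-06). Ttc39c, a tetratricopeptide repeat protein gene, moved from 43.1, 43.1 and 47.0 CPM to 89.3, 103 and 94.9 CPM, without overlap (1.11 ± 0.11, edgeR adjusted p = 1.97e-06).

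Kcnj8 encodes a pore subunit of ATP-sensitive potassium channels. It was at 13.1, 13.7 and 20.9 CPM in the libraries labelled cWT and at 52.2, 41.9 and 34.9 CPM in those labelled cKO, a log2 fold change of 1.43 ± 0.18 (edgeR adjusted p = 0.000181). Itga1, the gene of the collagen-binding integrin chain CD49a, was low in every library. It rose from 5.72, 4.52 and 4.22 CPM to 12.3, 10.9 and 8.21 CPM (log2 fold change 1.12 ± 0.21, edgeR adjusted p = 0.00985), and the call was lost when cWT replicate 2 or 3 or cKO replicate 1 or 2 was left out, with the fold change between 0.98 and 1.09. Among the genes that fell, Tnfsf8 had the largest change. It encodes CD30 ligand, a TNF superfamily member, and stood at 17.7, 18.7 and 14.3 CPM against 6.72, 4.07 and 3.52 CPM. The highest library labelled cKO had less than the lowest labelled cWT, and Tnfsf8 fell by 1.83 ± 0.21 on the log2 scale (edgeR adjusted p = 2.28e-05).

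**Figure D3:**
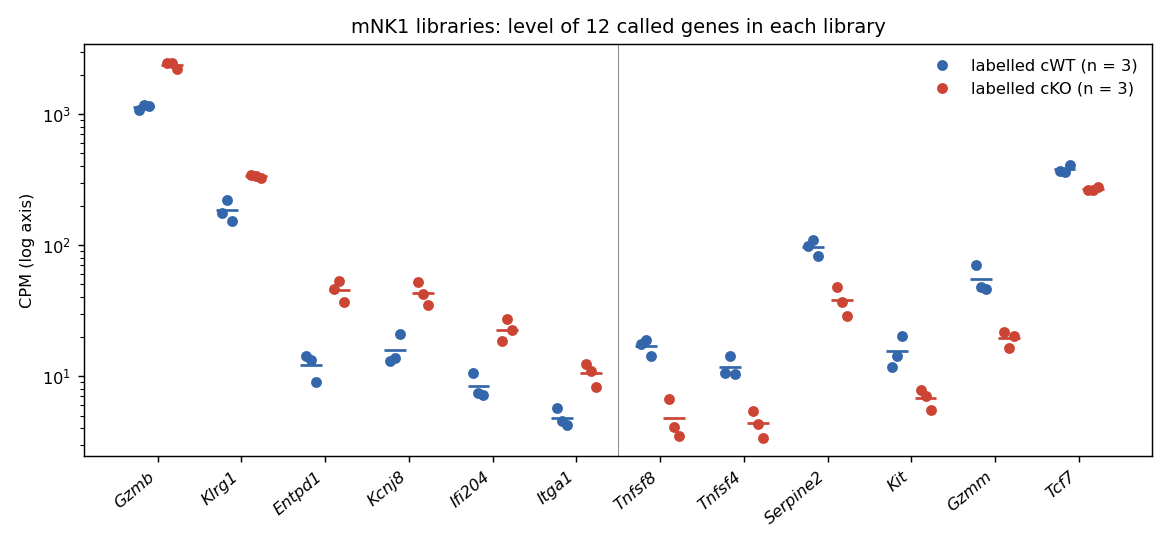
CPM on a log axis of 12 called genes in each mNK1 library, blue for cWT and red for cKO, with a bar at the mean of the 3 libraries. The 6 genes on the left rose and the 6 on the right fell, and for none of them do the groups overlap, for example Entpd1 (8.99 to 14.3 against 36.7 to 53.1 CPM) and Tnfsf8 (14.3 to 18.7 against 3.52 to 6.72 CPM).

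Since BACH2 and AP-1 dimers can share the letters TGAGTCA, the window from 250 bases before to 50 bases after each RefSeq gene start (build GRCm38.p6) was searched for them on both strands, where the reverse strand reads TGACTCA. RefSeq windows were found for 53 of the 70 called genes, and 8 of them (15.1%) held the letters, 6 of 35 that rose and 2 of 18 that fell. Among all 9378 tested genes with a window, 412 (4.39%) held them. Called genes had more windows each (a mean of 1.43 against 1.27), which raises the chance of a match. The longer form with TGC directly before the 7 letters was in none of the 53 and in 12 of the 9378 (0.128%). The 8 genes were Gzmb, Srxn1, Tnfaip3, Sgms1, Aldoa and Nedd4, which rose, and C1qbp and Sac3d1, which fell. A match is a description of the letters, not evidence of occupancy. The 4 windows printed are those of risers discussed here for their roles in killing, oxidative stress, NF-kB signalling and membrane lipids, read along each gene's own strand with the motif in capitals.
Gzmb, chr14:56262285-56262584, minus strand, motif starting 58 bases before the gene start: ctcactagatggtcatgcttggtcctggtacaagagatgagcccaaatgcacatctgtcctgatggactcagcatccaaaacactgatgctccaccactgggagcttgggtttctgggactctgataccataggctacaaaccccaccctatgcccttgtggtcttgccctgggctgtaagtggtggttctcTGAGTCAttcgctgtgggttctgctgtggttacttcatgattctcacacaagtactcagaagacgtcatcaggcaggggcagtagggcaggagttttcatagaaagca
Srxn1, chr2:152105274-152105573, plus strand, motifs starting 102 and 45 bases before the gene start: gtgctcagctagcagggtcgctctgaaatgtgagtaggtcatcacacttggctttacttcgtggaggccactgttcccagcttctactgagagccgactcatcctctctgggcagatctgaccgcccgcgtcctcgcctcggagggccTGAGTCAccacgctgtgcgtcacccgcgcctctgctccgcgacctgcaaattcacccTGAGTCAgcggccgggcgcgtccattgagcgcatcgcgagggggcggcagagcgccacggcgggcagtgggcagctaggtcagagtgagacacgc
Tnfaip3, chr10:19015361-19015660, minus strand, motif starting 136 bases before the gene start: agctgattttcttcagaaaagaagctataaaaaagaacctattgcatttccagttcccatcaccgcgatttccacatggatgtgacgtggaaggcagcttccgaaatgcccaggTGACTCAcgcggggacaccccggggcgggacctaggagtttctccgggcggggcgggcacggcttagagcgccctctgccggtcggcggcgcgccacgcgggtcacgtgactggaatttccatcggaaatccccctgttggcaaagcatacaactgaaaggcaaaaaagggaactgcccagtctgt
Sgms1, chr19:32210964-32211263, minus strand, motif starting 54 bases before the gene start: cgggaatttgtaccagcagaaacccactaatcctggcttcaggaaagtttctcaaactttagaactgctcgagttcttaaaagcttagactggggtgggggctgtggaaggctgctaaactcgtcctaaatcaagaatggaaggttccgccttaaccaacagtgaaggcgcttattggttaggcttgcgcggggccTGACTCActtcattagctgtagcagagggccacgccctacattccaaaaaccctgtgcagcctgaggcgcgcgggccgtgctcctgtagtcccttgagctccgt

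The called genes of a list of late NK maturation were all higher. Of 18 such genes tested, 4 rose and 0 fell, with a median log2 fold change of 0.23 against 0.01 for all tested genes. The 4 were Gzmb, Klrg1, Rora and Spn. Rora did not rise with maturation in unmodified WT mice. There its log2 fold change from iNK to mNK1 was -1.44 ± 0.25 (edgeR adjusted p = 0.000342). From mNK1 to KLRG1-positive mNK2 it was -0.41 ± 0.26 (edgeR adjusted p = 0.370). Klrg1, an inhibitory receptor that marks the most mature NK cells, was at 177, 222 and 154 CPM in the libraries labelled cWT and at 344, 337 and 325 CPM in those labelled cKO. The 3 libraries labelled cKO were nearly level and all above the other group (log2 fold change 0.86 ± 0.15, edgeR adjusted p = 0.00806), but the call was lost without cWT replicate 1 or 3. Rora, a nuclear receptor gene with a part in innate lymphoid cells, rose by 0.84 ± 0.18 (edgeR adjusted p = 0.0281), and Spn, the gene of the sialoglycoprotein CD43, by 0.33 ± 0.08 (adjusted p = 0.0497), and both calls were lost when any 1 of the 6 libraries was left out. Other members did not pass: Klf2, a regulator of lymphocyte exit and quiescence, had a log2 fold change of -0.11 ± 0.14, Anxa2 of -0.14 ± 0.10 and Lgals1, the galectin-1 gene, of -0.73 ± 0.55.

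Of 20 genes of early or stem-like NK cells tested, 0 rose and 5 fell, with a median log2 fold change of -0.27. At an unadjusted p under 0.05, 7 were lower and 1 was higher, Cd226 (0.52 ± 0.17, edgeR adjusted p = 0.302), an activating receptor gene named after its values were seen. Tcf7 encodes TCF1, a factor of NK precursors and memory-like lymphocytes, and was at 365, 362 and 408 CPM in the libraries labelled cWT and at 265, 263 and 279 CPM in those labelled cKO. The groups were separate and tight, and Tcf7 fell by 0.49 ± 0.10 on the log2 scale (edgeR adjusted p = 0.0202), a call lost without cWT replicate 1 or 3 or cKO replicate 1 or 2.

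Kit, the receptor for stem cell factor, was at 11.7, 14.3 and 20.4 CPM in the libraries labelled cWT and at 7.85, 6.99 and 5.55 CPM in those labelled cKO. It fell by 1.19 ± 0.22 (edgeR adjusted p = 0.00806), a call lost without cWT replicate 3 or cKO replicate 2. Crtam encodes an adhesion receptor of activated NK and T cells and stood at 116, 114 and 129 CPM against 75.5, 81.1 and 65.7 CPM, so that it fell by 0.69 ± 0.10 (edgeR adjusted p = 0.000618). Socs2, a feedback inhibitor of cytokine signalling, stood at 29.0, 23.5 and 25.8 CPM against 11.2, 12.3 and 13.7 CPM and fell by 1.07 ± 0.15 (edgeR adjusted p = 0.00026). For both genes the groups were well apart. Cd27, the surface marker of less mature NK cells, was at 378, 331 and 352 CPM against 261, 287 and 300.1 CPM. Its groups did not overlap, yet it missed the threshold (log2 fold change -0.32 ± 0.08, edgeR adjusted p = 0.101), as did the adhesion molecule gene Emb (-0.35 ± 0.09, adjusted p = 0.113).

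The granule and effector genes, a list that also holds cytokine and chemokine genes, showed no common direction. Of 26 listed, 22 were tested, with Gzmb the only one called higher and Gzmm the only one called lower, and the median log2 fold change was 0.06. Gzmm encodes granzyme M, an NK granule protease with another cleavage preference than granzyme B. It was at 70.5, 48.1 and 46.0 CPM in the libraries labelled cWT and at 21.7, 16.5 and 20.4 CPM in those labelled cKO. The groups did not overlap, and Gzmm fell by 1.49 ± 0.30 (edgeR adjusted p = 0.0281), but the call was lost when any 1 of the 6 libraries was left out.

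None of the 4 most abundant genes of that list (Gzma, Ccl3, Ccl5 and Ctsw) was called. Ctsw, which encodes cathepsin W, was even between libraries at 2558, 2640 and 2621 CPM against 2285, 2445 and 2632 CPM (log2 fold change -0.09 ± 0.08, edgeR adjusted p = 0.712). Gzma and Ccl5 were uneven within their groups. Gzma, the granzyme A gene, was at 10664, 13121 and 7614 CPM in cWT replicates 1 to 3 and at 10116, 8534 and 14473 CPM in the libraries labelled cKO (log2 fold change 0.08 ± 0.29). The chemokine gene Ccl5 stood at 3510, 3082 and 1338 CPM against 1631, 1592 and 4138 CPM (-0.11 ± 0.62). Both were lowest of their group in cWT replicate 3 and highest of their group in cKO replicate 3, as was the summed ribosomal protein level. Nkg7, a granule membrane protein gene, had the same order of libraries at 6773, 6993 and 4680 CPM against 4509, 4110 and 7358 CPM (-0.21 ± 0.33). With the ribosomal protein sum as a covariate, the Ccl5 fold change became 0.64 (edgeR adjusted p = 0.000161), that of Gzma 0.42 (0.0357) and that of Ccl3, another chemokine gene, 0.81 (5.46e-07, from 0.43 ± 0.29 without the covariate).

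Among the serpins, a family of protease inhibitors, 0 of 9 tested genes rose and 1 fell. That gene was Serpine2, which encodes an inhibitor of thrombin and related proteases. It was at 97.7, 108 and 83.1 CPM in the libraries labelled cWT and at 47.9, 37.0 and 28.8 CPM in those labelled cKO. Its highest value in the cKO group was well under the lowest in the cWT group, and it fell by 1.35 ± 0.16 (edgeR adjusted p = 4.89e-05). Serpinb9, the granzyme B inhibitor that protects cytotoxic cells, had 683, 856 and 804 CPM against 939.8, 999 and 973 CPM. The groups did not overlap, but the log2 fold change of 0.31 ± 0.09 did not pass (edgeR adjusted p = 0.169).

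In the TNF ligand and receptor family, 23 of 26 listed genes were tested, 0 rose and 2 fell, with a median log2 fold change of -0.25. Beside Tnfsf8, the second was Tnfsf4, the gene of OX40 ligand, which costimulates T cells. It stood at 10.6, 14.1 and 10.4 CPM against 5.44, 4.28 and 3.39 CPM, without overlap, and fell by 1.43 ± 0.25 (edgeR adjusted p = 0.00396). The receptor genes Tnfrsf18 (GITR, -0.32 ± 0.17), Cd27 (-0.32 ± 0.08) and Tnfrsf9 (4-1BB, -0.26 ± 0.09) did not pass. The ligand gene Fasl was at 346 to 376 CPM in the libraries labelled cWT and 380.01 to 411 CPM in those labelled cKO (0.12 ± 0.07, edgeR adjusted p = 0.614).

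Of 17 genes of tissue residency or type 1 innate lymphoid cells, 3 rose and 0 fell (median 0.26): Itga1, Rgs1 and Cxcr6. At an unadjusted p under 0.05, 6 were higher and 1 was lower. The lower one was Cd160, whose groups did not overlap (-0.48 ± 0.18, edgeR adjusted p = 0.388). Rgs1, which dampens chemokine receptor signalling, was at 604, 587 and 553 CPM in the libraries labelled cWT and at 1115, 913 and 947 CPM in those labelled cKO. The groups were far apart (log2 fold change 0.77 ± 0.09, edgeR adjusted p = 2.28e-05). Cxcr6, a chemokine receptor gene of liver-resident lymphocytes, was low, at 4.95 to 7.56 CPM against 10.1 to 12.7 CPM (0.84 ± 0.16, edgeR adjusted p = 0.0128). Cd69, the usual surface marker of residency, was at 159, 145 and 134 CPM against 159.5, 154 and 129.8 CPM, so the groups overlapped fully (0.02 ± 0.10). Of 19 integrin and adhesion genes 1 rose (Itga1) and 1 fell, and of 19 trafficking genes 3 rose (Cxcr6, Rgs1 and Sgms1) and 1 fell. Of 14 purine genes, Entpd1 was the only one called, and the adenosine transporter Slc29a1 (-0.16 ± 0.12) and the phosphorylase Pnp (0.10 ± 0.08) were not.

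Immediate early genes are those that cells switch on within minutes of stimulation. Of 25 tested, 4 rose and 0 fell (6 and 0 under DESeq2, 8 and 0 under limma voom), 12 were higher at an unadjusted p under 0.05, and the median log2 fold change was 0.34. Zfp36 encodes tristetraprolin, which destabilises cytokine mRNAs, and was at 1697, 1457 and 1674 CPM against 3215, 2848 and 2183 CPM (0.77 ± 0.12, edgeR adjusted p = 0.000652). Dusp1, a MAP kinase phosphatase gene, rose by 0.57 ± 0.09 (edgeR adjusted p = 0.000652). Tnfaip3, which encodes the NF-kB inhibitor A20 and whose promoter is printed above, rose by 0.67 ± 0.10 (edgeR adjusted p = 0.000652). Klf6, a zinc finger factor gene, rose by 0.36 ± 0.08 (edgeR adjusted p = 0.0242), a call lost with the basophil covariate described below. In all 4 the groups did not overlap.

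The AP-1 and related leucine zipper genes gave 0 calls among 21 tested under edgeR, 0 under DESeq2 and 1 under limma voom, with 5 higher and 1 lower at an unadjusted p under 0.05 and a median of 0.25. Jun was at 1271, 809.6 and 1094 CPM against 2141, 1685 and 1069 CPM, and Fos at 895, 672 and 865 CPM against 1381, 1343 and 771 CPM. In both genes cKO replicate 3 lay within the range of the cWT group while the other 2 cKO libraries were above it. Junb, the most abundant, had a log2 fold change of 0.18 ± 0.13. The immediate early sum was 16105 to 20773 CPM in the libraries labelled cWT and 20747 to 26581 CPM in those labelled cKO, while the mNK1 cells of unmodified WT mice, scaled separately, had 2529 to 3580 CPM. Genes outside that list also differed between the 2 experiments, in either direction. Lamp1 was at 260 to 320 CPM in the 6 libraries against at most 30.2 CPM in those WT cells. Itgal was at 392 to 538 CPM against up to 1455 CPM. The handling of the cells before lysis is not described by genotype, and its part in the immediate early levels was not tested.

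**Figure D4:**
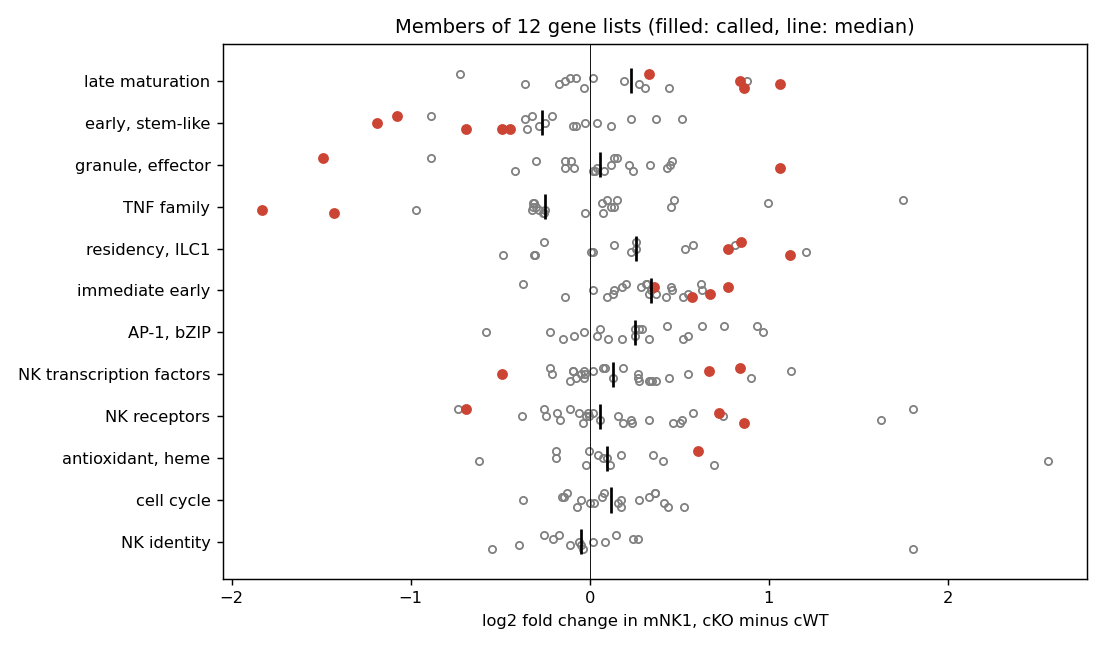
Log2 fold change in mNK1 (cKO minus cWT) of the members of 12 gene lists, 1 point per gene, filled where called in either direction, with a black line at the list's median. The early, stem-like list has 5 filled points, all below 0, and the late maturation list has 4, all above 0.

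Few receptor and transcription factor genes of NK cells were called. Among 29 receptor genes tested, Klrg1 and Klrb1b rose, Crtam fell, and the median log2 fold change was 0.06, with 7 higher and 2 lower at an unadjusted p under 0.05. Klrb1b encodes an inhibitory lectin-like receptor and was at 171, 189 and 186 CPM against 265, 311 and 324 CPM (0.72 ± 0.10, edgeR adjusted p = 0.000439). Klrb1c, its relative that encodes NK1.1, was at 3099 to 3537 CPM against 3019 to 3164 CPM (-0.11 ± 0.08); reads of such near copies can be counted for each other. Among 29 transcription factor genes Irf8 and Rora rose and Tcf7 fell (median 0.13), with 4 higher and 1 lower under DESeq2, 6 and 1 under limma voom, and 7 and 2 at an unadjusted p under 0.05. Irf8, an interferon regulatory factor gene, was at 589, 596 and 546 CPM against 860.1, 1069 and 815 CPM (0.66 ± 0.15, edgeR adjusted p = 0.0401), a call lost when any of 5 libraries was left out, the exception being cKO replicate 3. It was lost with the basophil covariate too (edgeR adjusted p = 0.117). Tbx21, the gene of the NK master regulator T-bet, was at 602, 578 and 689.9 CPM against 579, 741 and 572 CPM (0.02 ± 0.13), and the levels overlapped.

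Another 4 groups held 1 or 2 called genes each. Of 15 antioxidant and heme genes, Srxn1 rose. It encodes sulfiredoxin, which repairs oxidised peroxiredoxins, and it stood at 18.1, 18.3 and 18.6 CPM against 28.6, 27.3 and 27.6 CPM, with little spread (0.60 ± 0.13, edgeR adjusted p = 0.0248), and the call was kept without cKO replicate 3 and lost without any of the other 5 libraries. Of 17 p53 target genes, Phlda3 fell. It encodes a small protein that holds back AKT, and at 18.2, 16.5 and 14.03 CPM against 7.07, 6.99 and 5.74 CPM it fell by 1.30 ± 0.20 (edgeR adjusted p = 0.000947). Of 16 interferon-related genes, Ifi204 and Ifit2 rose. Ifi204, a DNA-sensing p200 family gene whose reads near copies can share, was at 10.5, 7.49 and 7.22 CPM against 18.7, 27.0 and 22.3 CPM (1.43 ± 0.22, edgeR adjusted p = 0.000705). Of 23 cytokine receptor genes, Kit was the only one called, and Il2rb, part of the interleukin-15 receptor on which NK cells depend, had a log2 fold change of -0.04 ± 0.10. None of 20 cell cycle genes was called under edgeR, DESeq2 or limma voom, 2 were higher at an unadjusted p under 0.05, and Pcna (-0.05 ± 0.10) and Mcm6 (0.00 ± 0.12) were level.

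Several called genes lay outside these lists. Bcl2, which protects lymphocytes from apoptosis, fell from 294, 271 and 291 CPM to 204, 218 and 222 CPM (-0.41 ± 0.07, edgeR adjusted p = 0.00288). Ptger4, a prostaglandin E2 receptor gene, rose from 75.8, 86.2 and 89.7 CPM to 136, 141 and 125 CPM (0.68 ± 0.11, edgeR adjusted p = 0.00288). In neither gene did the groups overlap. Sytl2, a vesicle docking factor, rose by 0.61 ± 0.10. Slc2a3, the glucose transporter GLUT3, rose by 0.47 ± 0.10 and the glycolytic enzyme gene Aldoa by 0.36 ± 0.08. The ribosome assembly gene Rrp15 fell by 0.56 ± 0.13, the spermidine synthase gene Srm by 0.53 ± 0.12, the mitochondrial ribosomal protein gene Mrps18b by 0.55 ± 0.11 and C1qbp, which encodes a mitochondrial matrix protein, by 0.52 ± 0.11. These genes belong to no list tested here. Selp, the gene of P-selectin, fell by 1.06 ± 0.23, and Fgf13 by 0.72 ± 0.15.

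Markers of other cells were present in both groups. The 10 basophil markers, a list chosen after their values were seen, summed to 1213, 933 and 838 CPM in cWT replicates 1, 2 and 3 and to 2182, 1382 and 909 CPM in cKO replicates 1, 2 and 3, against 10.3 to 20.8 CPM in mNK1 cells of unmodified WT mice. None was at 0 in any of the 6 libraries, none was called under edgeR, DESeq2 or limma voom, 1 was higher at an unadjusted p under 0.05, and the median log2 fold change was 0.51. Myeloid and dendritic markers (8 of 10 tested) summed to 256 to 776 CPM against 456 to 1069 CPM, led by Lyz2 at 219 to 701 CPM against 402 to 961 CPM, with 0 called by the 3 tools and 0 at an unadjusted p under 0.05. The 12 B cell markers summed to 43.2 to 50.4 CPM against 60.2 to 77.1 CPM, with all 12 fold changes above 0 and 6 at an unadjusted p under 0.05. Of these Ebf1, a B lineage factor, was called. It rests on 1 count over the 3 libraries labelled cWT and 20 over those labelled cKO, a ratio of 20.5 with a 95% exact binomial interval from 3.28 to 849 that covers counting error only. The T cell markers summed to 364 to 377 CPM against 401 to 462 CPM, the neutrophil markers to 72.5 to 275 CPM against 107 to 250.5 CPM and the erythroid and platelet markers to 50.2 to 81.5 CPM against 63.1 to 88.7 CPM, with Hba-a1 and Hba-a2 at 0 throughout and 0 called in all 3 lists by any of the tools (1, 0 and 1 at an unadjusted p under 0.05). Most of the T cell sum was Cd28 and Lat, at means of 215 and 114 CPM over the 6 libraries. These reached 131 and 122 CPM in unmodified WT mNK1 cells. Cd3g averaged 29.1 CPM, Cd4 2.16 CPM and Cd8a 0.413 CPM. The neutrophil sum was led by Cxcr2 (90.3 CPM) and Ngp (44.8 CPM), while S100a8 averaged 3.64 CPM. Neither sum by itself shows that such cells were present.

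Several called genes were highest where the basophil sum was highest. Lilrb4a and Lilr4b, near-identical genes of inhibitory immunoglobulin-like receptors that share reads, stood at 169, 151 and 123 CPM against 366, 272 and 220.1 CPM and at 234, 193 and 169 CPM against 418, 354 and 293 CPM. Both rose (0.96 ± 0.16 and 0.84 ± 0.16), and within each genotype the libraries with the higher basophil sum had more of both. The protease gene Adam8 (27.4, 20.98 and 20.4 CPM against 65.8, 40.9 and 27.3 CPM), the sphingomyelin synthase gene Sgms1 (7.09, 5.20 and 5.92 CPM against 19.02, 16.2 and 7.10 CPM) and the lysosomal cofactor gene Gm2a (226, 192 and 176 CPM against 380, 311 and 215 CPM) were also highest in cKO replicate 1 and lowest of the cKO group in replicate 3. With the basophil sum as a covariate, an alternative chosen after seeing the data, 48 of the 67 named called genes were called. Lilrb4a (edgeR adjusted p = 0.0033) and Lilr4b (0.0229) were among them. The other 19 were not. They were Adam8 (0.198), Sgms1 (0.142), Gm2a (0.123), Irf8 (0.117), Ebf1 (0.0827), Klf6 (0.0744), Srxn1 (0.0676), Slc2a3 (0.0823), Aldoa (0.153), Nedd4 (0.1399), Smpdl3a (0.146), Rrp15 (0.122), Slc16a6, Nfkbid, Lair1, Hsd17b12, Gpc1, Prcp and Akap13, and all 19 kept their direction. Fewer cells of a type and less RNA per cell cannot be told apart in such bulk samples.

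The 70 genes were then followed in the other fractions of the same genotypes. Whether the fractions come from the same animals is not stated. In the iNK fraction (36 genes called, 0.294%, of which 0.212% higher and 0.0816% lower), 45 of the 47 genes that rose in mNK1 had a positive fold change and 13 were called, while 18 of the 23 that fell had a negative one and 2 were called. In mNK2 (32 called, 0.261%, with 0.131% in each direction) the counts were 39 of 47 with 13 called and 23 of 23 with 10 called. In the NK fraction (70 called, 0.571%, of which 0.318% higher and 0.253% lower) they were 43 of 47 with 22 called and 23 of 23 with 11 called. Tcf7, Kit and Socs2, early-stage genes that fell in mNK1, had iNK fold changes of 0.02 ± 0.10, -0.10 ± 0.21 and 0.02 ± 0.14 and mNK2 fold changes of -1.13 ± 0.10, -1.72 ± 0.25 and -0.85 ± 0.16. Crtam, another of them, had -0.21 ± 0.10 in iNK and -0.82 ± 0.11 in mNK2. Gzmb, Ttc39c, Rgs1, Klrb1b, Tnfaip3, Dusp1 and Klf6 were called higher in all of iNK, mNK1 and mNK2. Serpine2 and Phlda3 were called lower in the same fractions.

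A difference between fractions was tested directly. No gene was called for a difference between its mNK1 and iNK effects under edgeR (0%), which does not show the effects to be equal. At an unadjusted p under 0.05 there were 519 genes, with 4 called by DESeq2 and 2 by limma voom. Between mNK1 and mNK2, 1 gene differed (0.00816%), with 440 at an unadjusted p under 0.05, 22 called by DESeq2 and 0 by limma voom. The gene called by edgeR was Gpr183, which encodes the oxysterol receptor EBI2 that positions lymphocytes. Gpr183 was at 53.6, 41.7 and 43.1 CPM in the mNK1 libraries labelled cWT and at 63.4, 58.7 and 43.3 CPM in those labelled cKO, which overlap (0.26 ± 0.14, edgeR adjusted p = 0.576), and in mNK2 it fell by 1.26 ± 0.18 (adjusted p = 0.000303). The difference was not called under limma voom (adjusted p = 0.124), with those 2 fractions fitted alone (0.0614) or without cKO mNK2 replicate 2 (0.0646). Whether basophil content has a part in it was not tested.

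**Figure D5:**
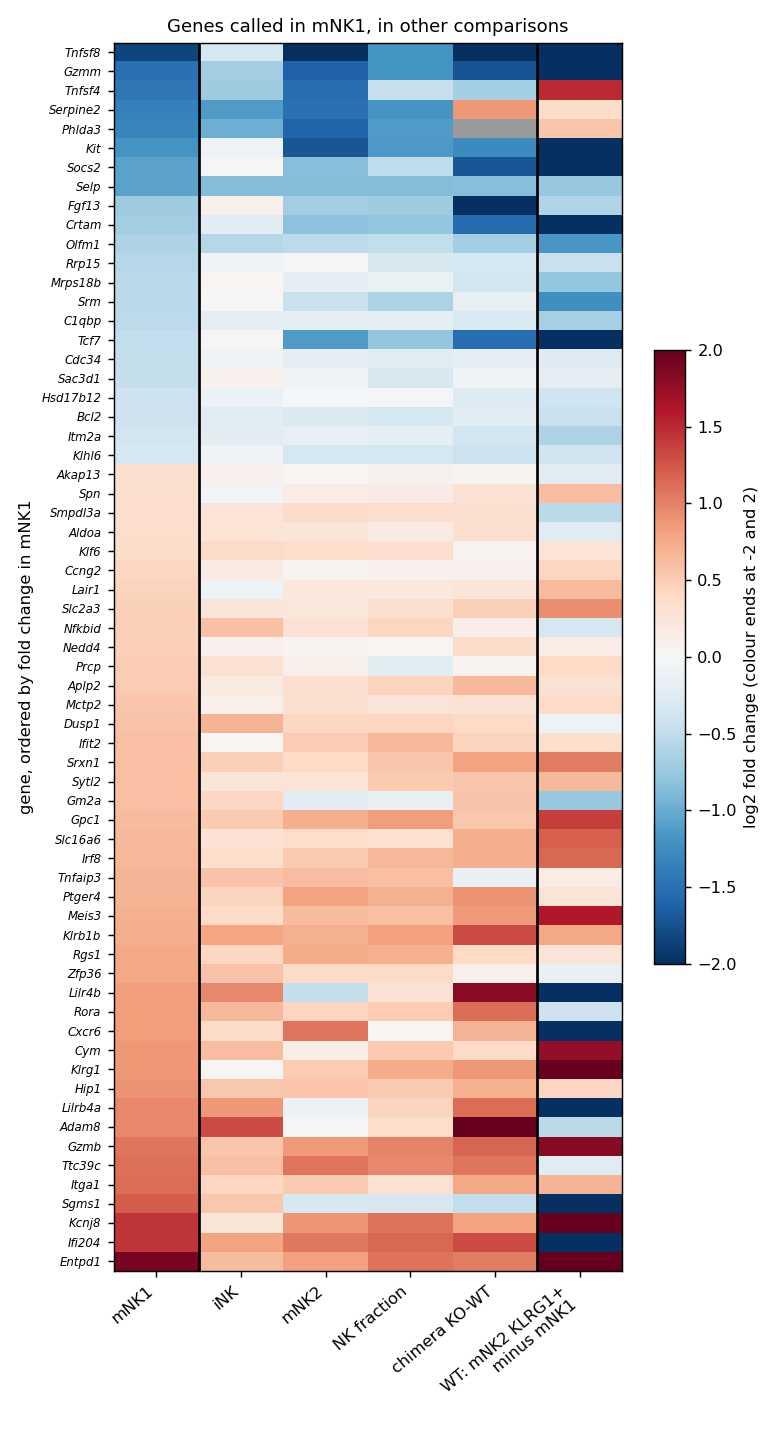
Log2 fold changes of 64 genes called in mNK1 (Ebf1, predicted genes and a few others left out), ordered by their mNK1 value, in mNK1, iNK, mNK2 and NK fractions (cKO minus cWT), in chimera NK cells (KO minus WT) and between 2 WT subsets. Red is higher, blue is lower, grey was not tested, and colours end at -2 and 2; Lilrb4a, Lilr4b and Cxcr6 are red in mNK1 and blue in the last column.

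The chimera NK cells gave a comparison from other libraries, with 4 Bach2-KO and 4 WT samples and 531 of 10614 genes differed there at the same threshold (5%, made up of 2.64% that rose and 2.36% that fell). Of the 46 genes that rose in mNK1 and were tested there, 41 had the same sign and 29 were called in the same direction. Of the 22 that fell, 21 had the same sign and 11 were called. Over all genes tested in both, 60.9% had the same sign. Gzmb (1.17 ± 0.10), Entpd1 (1.02 ± 0.11) and Klrg1 (0.87 ± 0.07) rose there as well, and Tcf7 (-1.52 ± 0.11), Tnfsf8 (-2.44 ± 0.34) and Kit (-1.28 ± 0.20) fell. Ebf1 was the only gene called in the opposite direction. Serpine2, which fell in mNK1, had a positive but uncalled chimera value (0.87 ± 0.38, edgeR adjusted p = 0.256), and Tnfaip3 (-0.15 ± 0.14), Klf6 (0.07 ± 0.08) and Zfp36 (0.10 ± 0.15) were near 0.

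The mNK1 effects were also set beside normal maturation, measured as the step from mNK1 to KLRG1-positive mNK2 cells in unmodified WT mice. That step changed 1304 of 11051 genes (11.8%), with 4.52% higher and 7.28% lower. Of the 23 genes that fell in the libraries labelled cKO, 20 had a negative value in the WT step, 15 were called lower and 0 were called higher. Of 46 that rose, 29 had a positive value, 17 were called higher and 6 were called lower. Over all 10943 shared genes 58.0% had the same sign, and the correlation of the 2 sets of log2 fold changes across genes, which are not independent replicates, was 0.04. Kcnj8 (3.03 ± 0.11), Klrg1 (2.98 ± 0.16), Entpd1 (2.61 ± 0.18) and Gzmb (1.83 ± 0.12) rose in the WT step. Tnfsf8 (-4.23 ± 0.55), Tcf7 (-3.67 ± 0.14) and Crtam (-3.18 ± 0.20) fell in it. In the step to KLRG1-negative mNK2 cells (7.29% of genes called, 2.18% higher and 5.11% lower), 11 of the 46 that rose in mNK1 were called higher and 6 lower, and 11 of the 23 that fell were called lower and 0 higher. In the earlier step from iNK to mNK1 (10.5% called, 6.39% higher and 4.14% lower), 13 of the 46 were called higher and 8 lower, and 10 of the 23 were called lower and 2 higher.

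The 6 genes that rose in the libraries labelled cKO but fell in the WT step were Lilr4b (-3.41 ± 0.58), Cxcr6 (-3.07 ± 0.32), Lilrb4a (-3.02 ± 0.36), Gm2a (-0.75 ± 0.17), Smpdl3a (-0.53 ± 0.11) and Aldoa (-0.24 ± 0.07). Within the conditional experiment the mean level of the 67 named called genes in cKO mNK1 was set beside those of cWT mNK1 and cWT mNK2. For 22 genes it lay between the cWT stages, for 29 it lay beyond the cWT mNK2 level on the same side, and for 16 it had moved away from the cWT mNK2 level. The genes were called on their difference from cWT mNK1, whose mean also sets these positions. The share over all tested genes was not computed, so the counts only describe. For some genes the cWT stages hardly differed, such as Bcl2 (285 CPM in mNK1 and 281 CPM in mNK2) and Itga1, and the position says little. Gzmb averaged 1136 ± 53.9 CPM in cWT mNK1, 2374 ± 138 CPM in cKO mNK1 and 4394 ± 185 CPM in cWT mNK2 (mean ± SD, n = 3 libraries each). Entpd1 averaged 12.2 ± 2.80, 45.2 ± 8.23 and 89.0 ± 6.10 CPM in the same order. Tcf7 averaged 379 ± 25.6, 269 ± 8.63 and 100.2 ± 7.41 CPM. These 3 genes lay between the cWT stages. Rgs1, at 581 ± 26.0, 992 ± 108 and 747 ± 42.9 CPM, and Serpine2, at 96.4 ± 12.7, 37.9 ± 9.59 and 48.3 ± 1.05 CPM, lay beyond cWT mNK2. Ttc39c, at 44.4 ± 2.24, 95.6 ± 6.74 and 35.0 ± 1.90 CPM, and Itga1, at 4.82 ± 0.792, 10.5 ± 2.08 and 4.65 ± 0.591 CPM, moved away from it.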

How the data were processed

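Read counts per gene symbol (24328 symbols) were used as deposited, and per the labels' protocols total RNA was purified with a Qiagen kit and made into libraries by the Clontech SMARTer method. Per the submitters' processing notes FastQC, STAR 2.5.0 and genome build mm9 were used. Annotation, strandedness and the counter are not given in the sources used here, so overlapping and antisense genes can share reads.

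All 24 libraries of the conditional experiment (8 groups) were fitted together, since they share the estimate of spread. Genes were kept by filterByExpr (12258), scaled by TMM and tested with edgeR 4.0.16 (quasi-likelihood F test, robust) on R 4.3.3. The common biological coefficient of variation was 0.173 with 16 residual degrees of freedom. P-values were adjusted by Benjamini-Hochberg over all tested genes, and called means an adjusted value under 0.05. Chimera and WT subset libraries were fitted apart. Alternatives used DESeq2 1.42.0, limma 3.58.1 voom with sample weights, other scaling and filters, a replicate block, fewer fractions, each library left out, and covariates. Smallest exact permutation p for 3 against 3 is 0.1, so single-gene permutation tests were not used.

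The members and lists were chosen with earlier results of these data known. The genes named are Bach2, the 4 markers, all called genes except predicted ones (3 left out), the called and up to 4 most abundant members of each list, and genes called in an interaction. Some called genes are not reported here. Ncr1 and the basophil list were added after their values were seen. No 2 replicate libraries were identical (chi-square per degree of freedom 10.3 to 47.9). The fits were tested on simulated data with known fold changes. For cKO against cWT in mNK1, 53.7% of 1.5-fold and 86.6% of 2-fold changes were recovered. For the mNK1 effect minus the mNK2 effect the shares were 10.4% and 70.1%.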

Additional observations from a re-analysis of the deposited data

Results flagged for a closer look

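The Gpr183 genotype effect differed between fractions: the mNK1 value minus the mNK2 value was 1.52 ± 0.22 on the log2 scale (edgeR adjusted p = 0.00804). Gpr183 averaged 46.1 ± 6.48 CPM in cWT mNK1 and 55.1 ± 10.5 CPM in cKO mNK1, against 9.07 ± 0.190 CPM in cWT mNK2 and 3.78 ± 0.392 CPM in cKO mNK2 (SD, n = 3 libraries). The 3 mNK2 libraries labelled cKO all lay below those labelled cWT, and the mNK1 groups overlapped. The call was lost under limma voom (1.62, adjusted p = 0.124), when the mNK1 and mNK2 libraries were fitted alone (1.54, edgeR adjusted p = 0.0614) and without cKO mNK2 replicate 2 (1.47, edgeR adjusted p = 0.0646). The basophil marker sum was 838 to 1213 CPM (cWT) and 909 to 2182 CPM (cKO) in mNK1. In mNK2 it was 177 to 270 CPM (cWT) and 92.8 to 118 CPM (cKO). The mNK1 value minus the mNK2 value was 1.78 ± 0.53 for the basophil marker Cyp11a1, 1.76 ± 0.46 for Cd200r3, 1.62 ± 0.58 for Hdc and 1.37 ± 0.50 for Cpa3, none called. No basophil covariate was fitted to this difference, and the part of basophil content in it was not tested.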

How the results depend on the processing

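The 70 calls in mNK1 became 126 under DESeq2, 142 under limma voom with sample quality weights, 139 with the ribosomal protein sum as a covariate, 12 when the 6 mNK1 libraries were fitted alone, and 23 without cWT replicate 3 and cKO replicate 1. The covariate and double removal were chosen after seeing the data. The last 2 used fewer libraries, and the cause of the changes was not tested. With 1 library left out the calls ran from 26 to 92, lowest without cKO replicate 2. Other scaling (70), no filter (67), a minimum mean of 5 CPM (72), the basophil covariate (71, 49 of them among the 70) and no replicates 3 (57) stayed within 1.5 times. All named called genes kept their direction in every alternative in which they were tested. Replicate numbers did not pair the libraries (residual correlations -0.05, -0.25 and -0.52 over 9118 genes), and with the replicate block 95 genes were called, 67 of them among the 70. The difference of effects between mNK1 and iNK (0 calls) gave 4 under DESeq2, 2 under limma voom and 0 to 1 with 1 library left out. That between mNK1 and mNK2 (1 call) gave 22 under DESeq2, 0 under limma voom, 16 with the replicate block, 0 when those 2 fractions were fitted alone and 0 to 17 with 1 library left out, highest without cKO mNK1 replicate 3. Ccl5 reversed from -0.11 to 0.64 with the ribosomal protein covariate. The longer promoter motif was in 0 called genes, against 8 for the 7 letters. Counts near 3 per library, as for Ebf1, limit what can be said of low genes.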
